A study of Homo sapiens with 2 samples.

Results

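The enzymes of mitochondrial fatty acid beta-oxidation were examined here as a group of 10 genes chosen by name, from carnitine entry to thiolysis: CPT1A, SLC25A20, CPT2, ACADVL, ACADM, ACADS, DECR1, HADHA, HADH and HADHB. All 10 were found among the 23619 genes on the array, through 17 of its 45033 probe sets. HADH was found through its gene ID, because the array lists it under the older symbol HADHSC. The cells were HCT15, a long-established line from a human colorectal carcinoma, with 1 sample that stably expressed an shRNA against LYAR and 1 sample that stably expressed a scramble control shRNA. Both were infected with a lentivirus packaged in 293T cells and sorted on GFP fluorescence, so both carry vector and GFP. More than 1 LYAR hairpin is named in the labels, with no statement of the one used here, and no second hairpin or rescue was analysed here. The series title ties LYAR, a zinc-finger protein of the nucleolus, to fatty acid metabolism, and the comparison asks how the genes that burn fatty acids stood when LYAR was reduced.

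Long-chain fatty acids reach the mitochondrial matrix as carnitine esters, made at the outer membrane, carried across the inner membrane and turned back into acyl-CoA inside. Each turn of the spiral then oxidises the acyl chain, hydrates it, oxidises it again and cleaves off acetyl-CoA, with separate dehydrogenases for long, medium and short chains. Colon epithelium is known for burning fatty acids, above all the short-chain butyrate made by gut bacteria. Cancer cells can both make fatty acids and oxidise them.

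LYAR itself measured 1036 with its shRNA and 1925 with the scramble shRNA, a log2 difference of -0.89, which went with the labels. This LYAR value rests on 1 probe set. All differences below are log2 intensity with the LYAR shRNA minus log2 intensity with the scramble shRNA, from 1 array each, so none has a replicate check, no test was made and the number of arrays limits the precision. Counts cover the 12682 genes that reached an intensity of 105.9 on their brighter array, and these were split by mean intensity into 3 tiers of equal size, called dimmest, middle and brightest. Random control probes, which match no gene, gave 30.3 and 32.7, and a probe set under 2 times that value (60.7 and 65.4) is called near the random probes. For the markers, the mean of a gene's probe sets was set against that limit, so a gene below it can hold probe sets above it. By probe set, 1 of 4 of PTPRC was below it on both arrays, 1 of 3 of NEFL, and 1 of 2 each of CDX1, PDGFRB and MYH7. Of 10 colon epithelium markers, 8 lay above that limit on both arrays, with KRT20 and CDX1 below it. None of 4 endothelial markers and 1 of 6 fibroblast markers (not COL1A2, COL3A1, DCN, LUM or PDGFRB) did so. Of 5 embryonic kidney or neuronal markers, the tubulin gene TUBB3 did so on both arrays, while PAX2, NEFL, NEFM and NEFH did not. Of 8 markers of adipose tissue, liver and muscle, all rich in beta-oxidation, 2 did so with the LYAR shRNA and 3 with the scramble shRNA. The means of ADIPOQ, PLIN1, LEP, ALB and MYH7 were below the limit on both. Blood-cell markers moved with the groups. Of 11, 4 lay above the limit with the LYAR shRNA and 9 with the scramble shRNA. The means of PTPRC and LYZ were below it on both, and the summed intensity of the list was 793 against 3727. The part of those markers in the differences below was not tested.

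HADHA and HADHB, the subunits of the mitochondrial trifunctional protein, lie head to head on chromosome 2, and their start sites are separated by 306 bases in GRCh38.p14. Their promoter windows overlap by 194 bases, which are shown first below because this stretch lies upstream of both genes. The 250 bases before the start of SLC25A20, CPT2 and CPT1A are shown as those of the carnitine entry genes, though CPT1A could barely be measured. The same stretch of ACADM is shown because it holds a match to a searched motif. All sequences are RefSeq promoters of GRCh38.p14, read 5′ to 3′, and capitals mark motif matches.
HADHA and HADHB, chr2:26244689-26244882, plus strand: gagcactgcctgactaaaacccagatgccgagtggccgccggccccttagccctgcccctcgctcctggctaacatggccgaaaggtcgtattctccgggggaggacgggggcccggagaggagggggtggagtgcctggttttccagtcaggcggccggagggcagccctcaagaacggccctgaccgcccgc
SLC25A20, chr3:48898883-48899132, minus strand: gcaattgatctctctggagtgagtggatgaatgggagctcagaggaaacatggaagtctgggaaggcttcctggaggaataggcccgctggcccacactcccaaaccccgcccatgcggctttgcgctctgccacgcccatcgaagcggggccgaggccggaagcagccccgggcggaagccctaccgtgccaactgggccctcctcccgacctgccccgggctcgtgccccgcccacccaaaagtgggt
CPT2, chr1:53196574-53196823, plus strand: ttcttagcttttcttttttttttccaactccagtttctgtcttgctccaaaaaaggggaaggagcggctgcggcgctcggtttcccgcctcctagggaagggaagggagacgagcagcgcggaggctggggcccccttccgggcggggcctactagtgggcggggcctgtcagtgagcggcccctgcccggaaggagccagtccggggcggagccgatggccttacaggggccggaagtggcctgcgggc
CPT1A, chr11:68844278-68844527, minus strand: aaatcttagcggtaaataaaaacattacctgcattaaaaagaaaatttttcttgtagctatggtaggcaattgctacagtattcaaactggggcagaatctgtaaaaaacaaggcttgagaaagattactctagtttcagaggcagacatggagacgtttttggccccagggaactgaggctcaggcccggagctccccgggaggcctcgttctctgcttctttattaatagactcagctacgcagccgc
ACADM, chr1:75724459-75724708, plus strand: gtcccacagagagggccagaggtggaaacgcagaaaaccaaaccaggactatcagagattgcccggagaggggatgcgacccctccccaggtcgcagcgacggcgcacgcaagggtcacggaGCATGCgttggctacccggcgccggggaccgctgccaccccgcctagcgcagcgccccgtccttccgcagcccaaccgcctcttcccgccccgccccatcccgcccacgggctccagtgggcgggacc

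The windows of 250 bases before to 50 bases after a start were searched on both strands for 6 short motifs, in 11 windows of 9 of the genes, all but DECR1. AGGTCA, the half-site of nuclear receptors such as the PPARs, was in 0 of the 11 windows and in 13.8% of all 35116 promoter windows. CACGTG, the E-box, was in 0 of 11 and in 7.26% of all windows, and ACGTG, the hypoxia response core that the E-box contains, was in 1 window, of ACADVL, and in 21.4% of all. GCATGC, the centre of the NRF1 site, was in 1 window each of ACADVL and ACADM and in 7.22% of all windows. CCAAT, the NF-Y box, was in 1 window, of HADH, and in 34.6% of all. GGTTAT, the motif reported for LYAR at the human gamma-globin genes, was in 1 window, that of a downstream start of HADH, and in 5.36% of all. The stretch shared by HADHA and HADHB held none of these letters. A match describes the letters in the window and is no evidence of binding, and a missing match says nothing about the factor.

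Most of the enzymes were slightly higher on the LYAR-shRNA array, and none reached 2-fold. In RNA from a whole culture, less RNA per cell and fewer cells that express a gene cannot be told apart. Of the 10 genes, 9 passed the intensity filter, and 8 of these 9 had a difference above 0, where 54.6% of all genes that passed did. DECR1 was the 1 gene of 9 at or past 1.5-fold higher, against 15.0% of all genes that passed. At 2-fold the count was 0 of 9 higher, against 5.06% of all, and 0 of 9 lower, against 3.56%. None of the 9 was at or past 1.5-fold lower, against 11.0% of all. The median difference was 0.23 over the 9 that passed and also over all 10, where it was 0.05 for all genes that passed and 0.02 for all genes. Each of the 9 also passed when the filter was set on the mean of both arrays, so none was counted through 1 array alone. Among themselves the 9 genes ran from -0.09 for ACADS to 0.93 for DECR1, with an SD of 0.29. Of the 9, 6 lay in the brightest tier and 3 in the middle one, in which 51.8% and 55.4% of genes were above 0. In these tiers 6.08% and 13.6% of genes were at or past 1.5-fold higher, and 6.05% and 9.16% lower. At 2-fold the tier shares were 1.16% and 3.48% higher, and 0.781% and 1.94% lower.

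**Figure D1:**
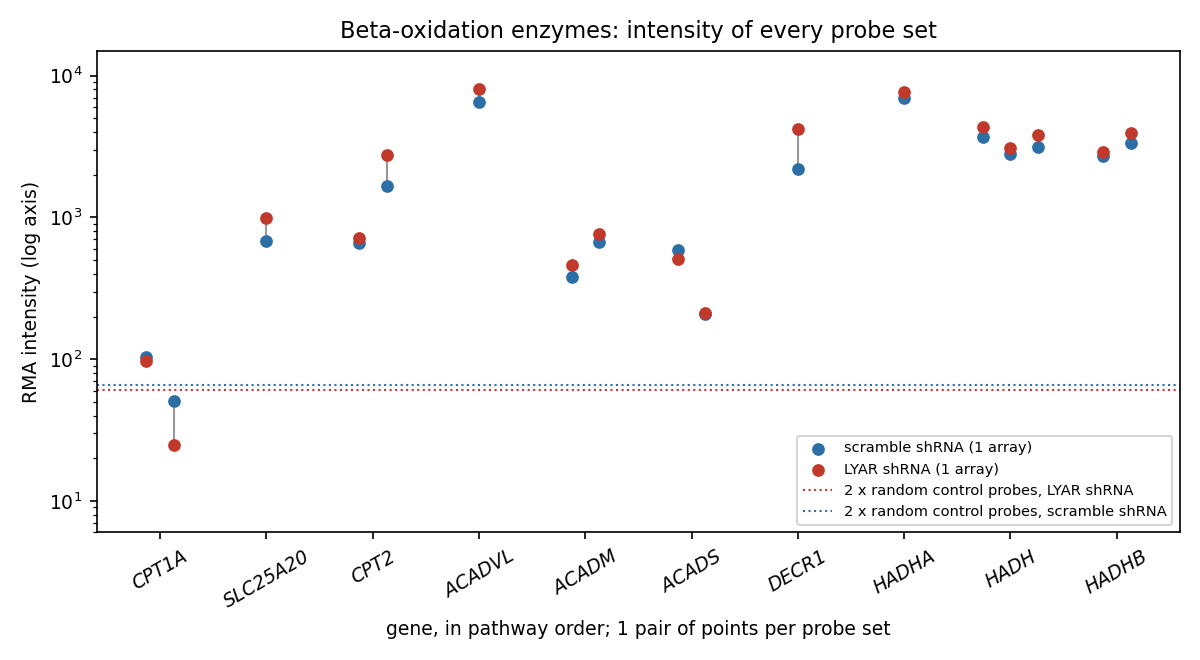
RMA intensity (log axis) of every probe set of the 10 genes with the LYAR shRNA (red) and with the scramble shRNA (blue), in pathway order; dotted lines mark 2 times the random control probes. The red point is above the blue one in 14 of 17 probe sets, and only 1 probe set of CPT1A lies under the dotted lines; heights of different genes cannot be compared, because probes differ in brightness.

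CPT1A, the outer-membrane carnitine palmitoyltransferase that controls entry of long chains, could barely be measured on this array. Its first probe set, on chromosome 11 from 68278663 to 68365850 in hg18, gave 96.3 with the LYAR shRNA and 104.1 with the scramble shRNA, a difference of -0.11. Its second probe set, from 68281144 to 68339531, gave 24.6 and 50.3 and was near the random probes on both arrays, so no fold can be given for it. The mean of both, -0.57, rests on that second probe set, and CPT1A failed the intensity filter. The direction of CPT1A is therefore carried by a single dim probe set with a difference smaller than 0.658, the pooled within-gene SD of probe sets in the dimmest tier. The related genes CPT1B and CPT1C, known from muscle and brain and named after their values were seen, measured 1278 against 1290 and 165.4 against 107.0, differences of -0.01 and 0.63.

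SLC25A20, the carrier that exchanges acylcarnitine for carnitine across the inner membrane, gave 998 with the LYAR shRNA and 682 with the scramble shRNA. This was a difference of 0.55 or 1.46-fold, from 1 probe set on chromosome 3 from 48869367 to 48911333 in hg18. It lay just under the 1.5-fold line, and 15.1% of the genes in its tier, the middle one, had a higher difference. CPT2, the inner-membrane enzyme that turns acylcarnitine back into acyl-CoA, gave 1415 against 1050, which is 0.43 on the log2 scale. The CPT2 probe sets, on chromosome 1, differed from each other: the brighter one, from 53434688 to 53452455, gave 2774 against 1674 (0.73), and the other, from 53435079 to 53452183, gave 722 against 659 (0.13). Both pointed the same way, and the size of the CPT2 difference depends on which is read. The annotated CPT2 transcripts overlap those of CZIB in hg18, and the labelling starts from double-stranded cDNA, which does not keep strand.

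Among the acyl-CoA dehydrogenases, which open each turn of the spiral, the difference was lowest for the short-chain enzyme of the 3 members examined. ACADVL, for very long chains, gave 8048 with the LYAR shRNA and 6569 with the scramble shRNA, a difference of 0.29, from 1 probe set on chromosome 17 between 7063876 and 7069309. ACADM, for medium chains, gave 458 against 380 in one probe set and 761 against 667 in the other, differences of 0.27 and 0.19, on chromosome 1 between 75962869 and 76001771. The ACADM probe sets stood within 0.1 of each other, yet the mean of 0.23 is smaller than 0.404, the pooled SD between probe sets in this middle tier. ACADS, for short chains, gave 510 against 589 and 213 against 209 on chromosome 12 between 119648024 and 119662193. Its probe sets pointed in opposite directions, at -0.21 and 0.03, so ACADS has no settled direction. ACADL, the long-chain enzyme named after its values were seen, was near the random probes on both arrays in both of its probe sets.

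DECR1, the dienoyl-CoA reductase that lets chains with a double bond at an even position enter the spiral, had the largest difference of the 9 enzymes that passed. It gave 4204 with the LYAR shRNA and 2201 with the scramble shRNA, a difference of 0.93 or 1.91-fold. Of all genes that passed, 6.06% had a higher difference, and among the brightest tier, where DECR1 lies, 1.51% did. It rests on 1 probe set of 3 probes, annotated on chromosome 8 from 91082755 to 91133403 in hg18, so no second probe set can be set beside it. In that brightest tier the pooled within-gene SD of probe sets was 0.230, and 6.08% of genes were at or past 1.5-fold higher.

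HADHA, HADH and HADHB complete the turn and were all close to the scramble-shRNA array. HADHA, the subunit that hydrates long chains and oxidises the hydroxyl group, gave 7637 against 7005, a difference of 0.12 from 1 probe set on chromosome 2 between 26267012 and 26320993. HADHB, the thiolase subunit of the same complex, gave 2888 against 2699 and 3943 against 3347, differences of 0.10 and 0.24, between 26321287 and 26366837. The partners that share a promoter region thus differed by 0.12 and by a mean of 0.17, both under the pooled SD of 0.230 between probe sets. HADH, the matrix hydroxyacyl-CoA dehydrogenase for shorter chains, had 3 probe sets on chromosome 4 between 109130318 and 109175773. They gave 4317 against 3673, 3069 against 2783 and 3825 against 3134, differences of 0.23, 0.14 and 0.29. The 3 agreed in direction, and their mean of 0.22 was also under that SD. The SD describes single probe sets, so it is a wide measure for a mean of 3.

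**Figure D2:**
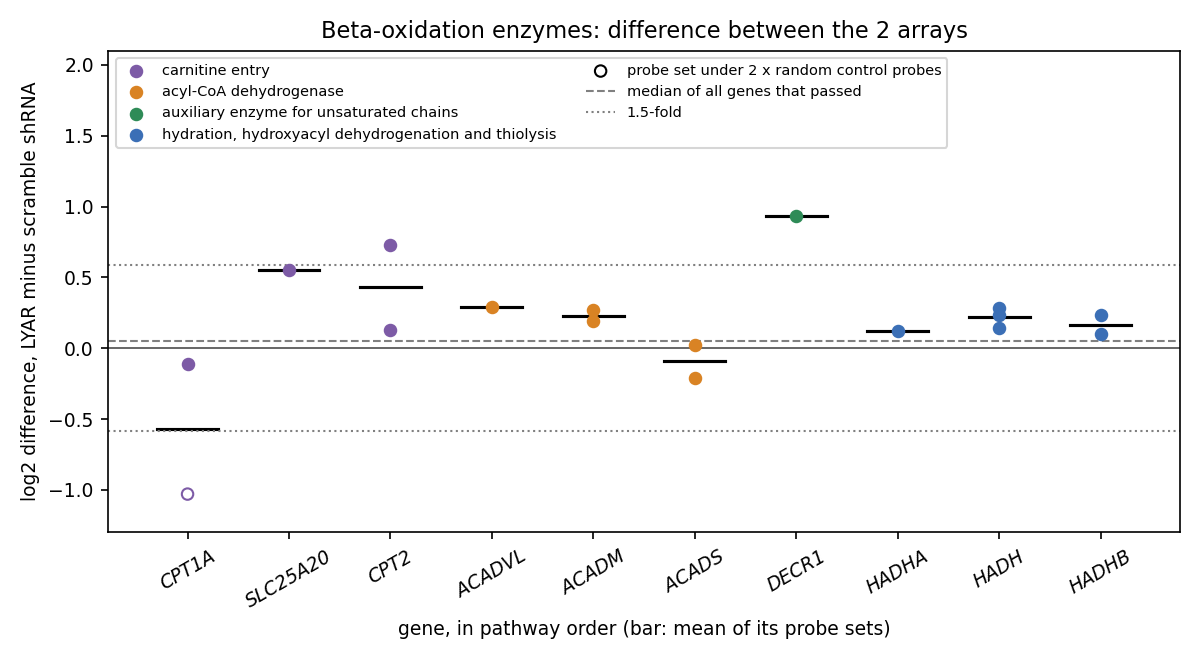
Log2 difference (LYAR minus scramble shRNA) of every probe set (points, coloured by pathway step) and the mean of each gene (bars); the open point is near the random probes, the dashed line is the median of all genes that passed, and dotted lines mark 1.5-fold. DECR1 stands highest at 0.93, the probe sets of CPT2 lie apart at 0.13 and 0.73, and those of ACADS lie on both sides of 0.

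By step, the 2 carnitine entry genes that passed had differences of 0.43 and 0.55, the 3 acyl-CoA dehydrogenases ran from -0.09 to 0.29, and the 3 genes of hydration, second oxidation and thiolysis ran from 0.12 to 0.22. With 1 to 3 genes a step and no replicates, an order of the steps was not tested. DECR1, SLC25A20, CPT2 and ACADVL, 4 of the 9, were higher by more than the pooled SD between probe sets in their own tier, where 24.0% of all genes that passed were. The other 5 differed by less than that SD. It describes single probe sets, so it is a stricter bar for genes averaged over several probe sets. Of the 4, only CPT2 has a second probe set, and that probe set gave 0.13.

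**Figure D3:**
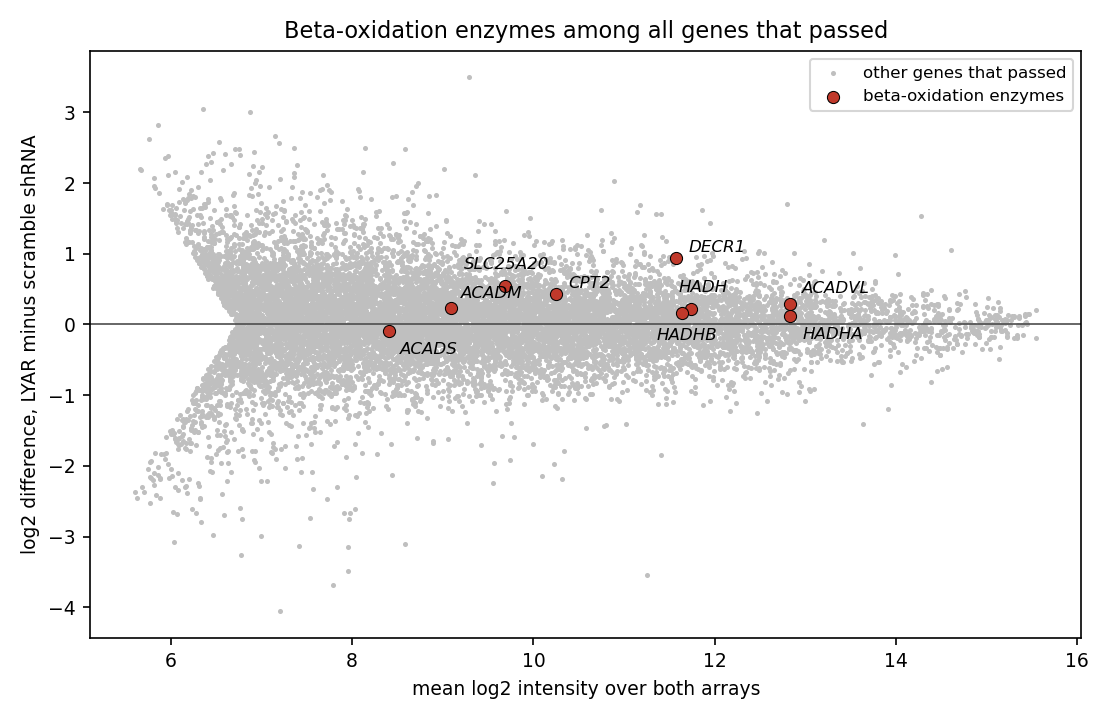
Log2 difference (LYAR minus scramble shRNA) against mean log2 intensity over both arrays, for the 9 beta-oxidation enzymes that passed (red) and all other genes that passed (grey, 12682 genes in all). The grey cloud widens toward dim genes; DECR1 lies near its upper edge at its intensity, and the other 8 lie within it.

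Genes listed as partners or regulators of these enzymes, most but not all of them mitochondrial, had a median close to that of all genes that passed. They cover the electron-transfer flavoproteins, other acyl-CoA dehydrogenases, isomerases, thiolases and carnitine handling. Of 22 listed, 20 passed, with 3 at or past 1.5-fold higher, a share equal to the 15.0% of all genes that passed, and 0 lower, against 11.0%. Of the 20, 13 were above 0, against 54.6% of all, and the median was 0.07. ETFDH, which hands electrons from the acyl-CoA dehydrogenases to ubiquinone, was at 333 against 168 with probe sets at 0.96 and 1.02. ACAD11, a dehydrogenase for long chains, was at 893 against 559, with 0.49 and 0.86. CRAT, the carnitine acetyltransferase, had a mean of -0.23 with probe sets at -0.66 and 0.20. ACACB, which makes the malonyl-CoA that inhibits CPT1 enzymes, averaged -0.22 over probe sets of -1.24 and 0.80, and the lower of them was under the near-random limit with the LYAR shRNA. CRAT and ACACB therefore have no settled direction.

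Genes of the peroxisomal pathway, which shortens chains too long for mitochondria, had a median of 0.41 over 10 of 13 that passed. That median was 0.16 with the brightest probe set of each gene, 0.14 with the series value table, 0.25 with the pseudocount and 0.11 without probe sets near the random probes. Of the 10, 9 were above 0, against 54.6% of all genes that passed, 3 were at or past 1.5-fold higher, against 15.0%, and 1 lower, against 11.0%. By measured intensities 2 of the 10 were at or past 2-fold higher, EHHADH at 1.12 and AMACR at 1.07, against 5.06% of all genes that passed and 10.5% of the dimmest tier, where both lie. The bifunctional enzyme gene EHHADH gave 0.22 and 2.01 in its probe sets, and 1 of them was under the near-random limit with the scramble shRNA. The racemase gene AMACR gave 0.42 to 1.87 over 5 probe sets, 2 of them under that limit with the scramble shRNA. EHHADH and AMACR reached the intensity filter with the LYAR shRNA alone, which fixes the sign of their differences. Of the 10, 4 were in the dimmest tier, in which 25.3% of all genes were at or past 1.5-fold higher.

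Those regulators of the oxidation genes that passed differed little between the arrays. Of 10 listed, 7 passed. Of the 7, 0 were at or past 1.5-fold in either direction, against 15.0% higher and 11.0% lower of all genes that passed. The median of the 7 was -0.12. It turned above 0 with the brightest probe set of each gene and without probe sets near the random probes. PPARD, PPARGC1A and PPARGC1B, named after their values were seen, did not pass. Every probe set of PPARD and PPARGC1A was near the random probes on both arrays. PPARGC1B gave 91.8 against 48.8, with 2 of 3 probe sets under the near-random limit with the scramble shRNA. NRF1, a transcription factor of mitochondrial genes, was at 761 against 922 (-0.28), with all 3 probe sets below 0. ESRRA, an orphan nuclear receptor that drives the pathway, was at -0.18 with probe sets from -0.35 to 0.02. PPARA, the fatty acid receptor, was at 0.03 with 4 probe sets from -0.44 to 0.43, and TFAM, the mitochondrial DNA packaging factor, at 0.07. Only 4 of 10 other PPAR target genes passed, and their median of 0.03 changed sign with centring, the lowess trend removed, no filter or the filter on the mean. ANGPTL4, a lipoprotein lipase inhibitor, gave 108.9 against 82.2 (0.40), and UCP2, a mitochondrial carrier, 637 against 827 (-0.38). CREB3L3, a liver transcription factor, was at -0.34 with 1 of 2 probe sets near the random probes on both arrays. FABP3, a fatty acid binding protein, had a brighter probe set at 0.72, while the other was under the near-random limit with the scramble shRNA. ANGPTL4 and FABP3 reached the filter with the LYAR shRNA alone.

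Genes of other mitochondrial proteins gave a further comparison. Of 10 listed, 9 were measured and all 9 passed, with a median of 0.02 that fell below 0 with the series value table, centring, the pseudocount or without probe sets near the random probes. CS, citrate synthase, differed by 0.27 and TOMM20, of the outer-membrane import complex, by 0.28, though its probe sets ran from -0.01 to 0.79. UQCRC1, of respiratory complex III, differed by -0.36 with all 3 probe sets below 0. SDHA, of complex II, was at 3482 against 6300, a difference of -0.86 from 1 probe set, and has near-identical pseudogenes that can share its signal. It was the 1 gene of the 9 at or past 1.5-fold lower, against 11.0% of all genes that passed. In the brightest tier, where SDHA lies, 6.05% of genes were. None of the 9 was at or past 1.5-fold higher, against 15.0% of all genes that passed.

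**Figure D4:**
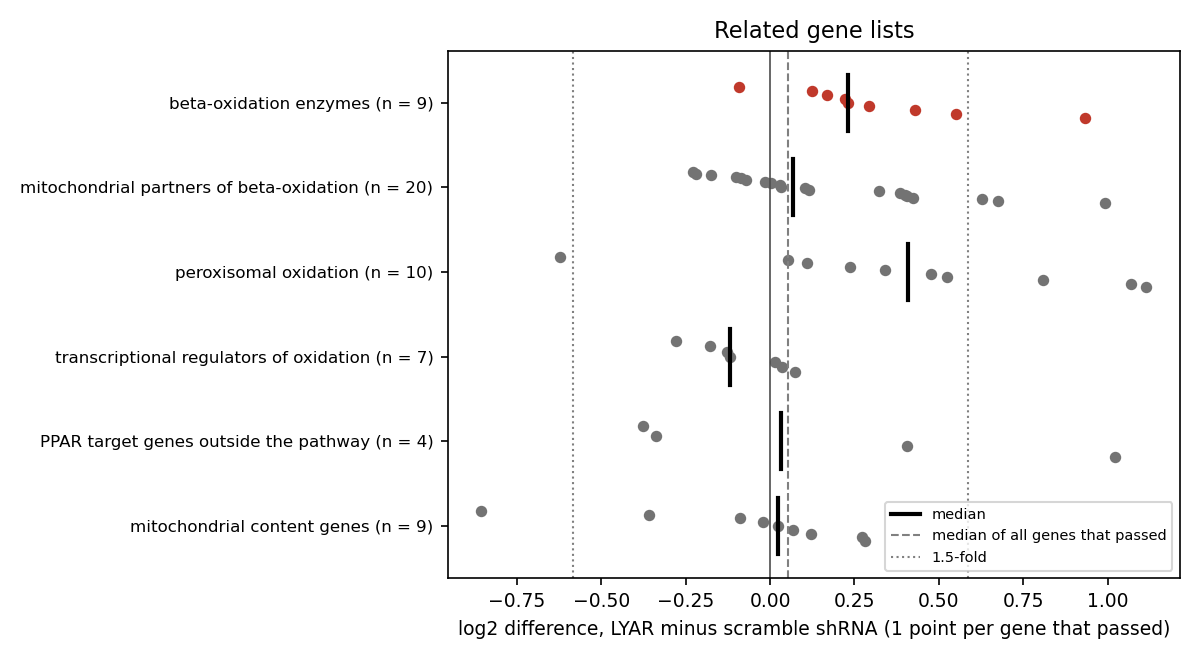
Log2 difference (LYAR minus scramble shRNA) of each gene that passed, for the 9 beta-oxidation enzymes (red) and 5 lists of related genes (grey), with list medians as black bars, the median of all genes that passed dashed and 1.5-fold dotted. Medians are 0.23 for the enzymes, 0.07 for mitochondrial partners, 0.41 for peroxisomal genes, -0.12 for regulators, 0.03 for PPAR targets and 0.02 for mitochondrial content genes; the peroxisomal median was 0.11 to 0.25 under 4 alternatives, and the signs of the last 3 medians turned under some.

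The enzymes kept their direction under the alternatives tried. Over 9 other ways of processing, 8 enzymes were above 0 each time and the median of those that passed ran from 0.17 to 0.24. No filter and the filter on the mean change only which genes pass. The series value table and leaving out probe sets near the random probes also kept the value of each enzyme that passed. For those enzymes these alternatives were therefore no further check of direction. Nor could the brightest probe set or the pseudocount turn the 8 enzymes above 0, since every probe set of these was above 0. For those 8, only median centring, quantile normalization and removal of the lowess trend could have changed the direction. DECR1 ran from 0.88 to 0.93 and SLC25A20 from 0.49 to 0.55. CPT2 ran from 0.37 to 0.73, the highest with its brighter probe set alone, which put it past 1.5-fold. CPT1A ran from -0.63 to -0.11, the latter with its brighter probe set alone, whether chosen as such, left after dim probe sets were dropped or held alone by the series value table.

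**Figure D5:**
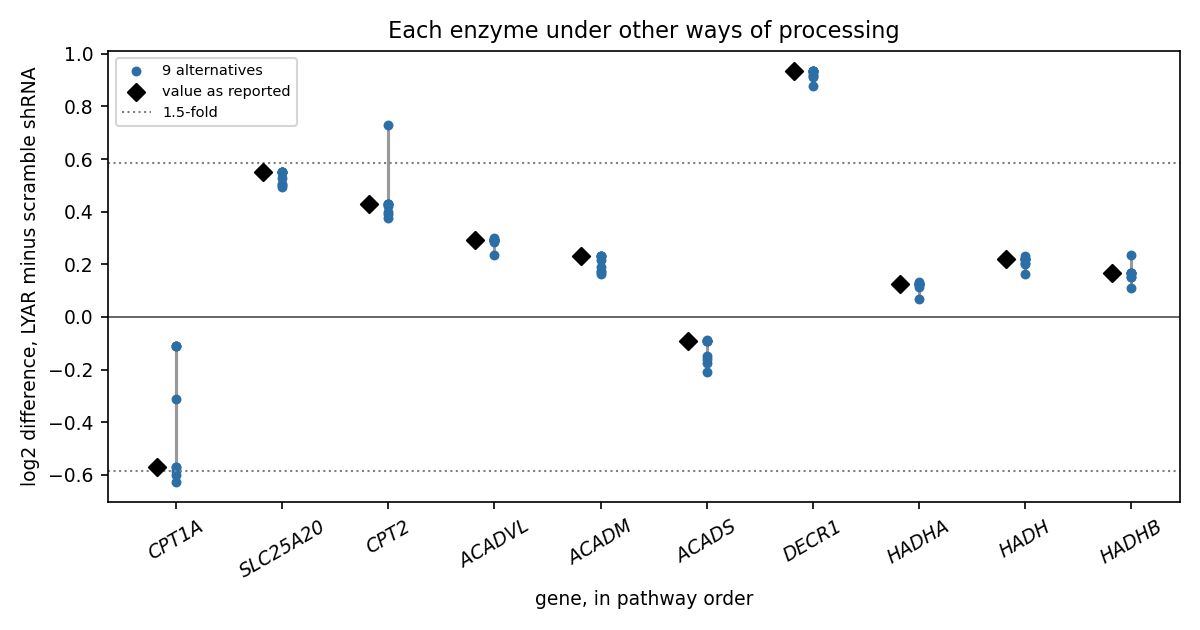
Log2 difference (LYAR minus scramble shRNA) of each gene as reported (diamonds) and under 9 alternatives (blue points joined by a line); dotted lines mark 1.5-fold. No gene changes sign, CPT1A and CPT2 spread widest, and DECR1 stays between 0.88 and 0.93.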

How the data were processed

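Total RNA from 1 HCT15 sample per group was labelled with Cy3 and hybridised to Roche NimbleGen expression arrays, per the labels' protocols. The deposited values are linear intensities, 1 per probe set; the submitters' processing notes name RMA. Its version, its settings and the arrays it was run on together are not stated. If both arrays were brought to 1 distribution, a shift shared by most genes would be hidden. A further deposited column, a score with no stated scale, was not used. Per the file headers, 45031 of 45033 probe sets have 3 probes and positions are in hg18.

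Groups came from the shRNA label. Gene IDs named 42947 probe sets, and symbols were updated through the RefSeq table of GRCh38.p14, which held 38916 of them. A gene's value is the average of its probe sets' log2 intensities, with no pseudocount. A gene passed if its brighter array reached the median, over all genes, of the mean intensity. With 1 array per group no test was possible, and size was read against the pooled SD of the difference between probe sets of a gene (0.463 over genes that passed) and against all genes. The gene summary was tested on simulated data. Alternatives were the brightest probe set, the series value table (22639 probe sets), median centring, quantile normalization, a lowess trend removed (span 0.3), a pseudocount of 32, no filter, a filter on the mean of both arrays, and leaving out probe sets near the random probes. Each alternative except no filter kept the intensity minimum of the reported values. Named genes were LYAR, the 10 enzymes and, per list, up to 2 genes with the largest difference in each direction among those that passed, unless said otherwise; 1 gene that the rule gave is not reported here. The enzymes and lists were chosen with earlier results of these data known. A planned protein comparison was not made. Python 3.11.15, pandas 2.3.3, numpy 2.4.6, statsmodels 0.14.6 and matplotlib 3.10.9 were used.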

Additional observations from a re-analysis of the deposited data

How the results depend on the processing

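No paired analysis was possible because each group had 1 array. A value was counted as moved when it changed by 0.463 or more, the pooled SD between probe sets, and a count when it changed by over 1.5 times. Of 198 values under 9 alternatives, covering 22 results, 197 stayed within these limits and 1 moved. No filter and the filter on the mean change only which genes pass, so a gene's own value could not move under them. Of the 22, only the differences of DECR1 and LYAR were at or past 1.5-fold, and neither changed sign, while medians of 3 lists did. DECR1 and LYAR rest on 1 probe set each, so the choice of probe set and the pseudocount could not turn them. The 1 that moved was the number of enzymes at or past 1.5-fold higher, which was 2 with the brightest probe set of each gene, where CPT2 joined DECR1. The counts at or past 2-fold were 0 in both directions each time, and LYAR ran from -0.95 to -0.87. The median of the mitochondrial partners ran from 0.01 to 0.12 and that of the peroxisomal genes from 0.11 to 0.41, while those of the regulators (-0.17 to 0.07), PPAR targets (-0.36 to 0.40) and mitochondrial content genes (-0.03 to 0.03) changed sign. The cause was not tested. With 1 array per group, differences between cultures, hybridisations and hairpins cannot be told apart from the effect of LYAR shRNA, and signal near the random probes limits what can be said of CPT1A.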
